A study of Homo sapiens with 4 samples.

Results

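The genes described here are 41 members of glycolysis and of the cellular response to low oxygen. They were taken as the rows whose gene name is one of the listed members, and all 41 were found among the 33880 genes of the deposited table. KGN, an established human cell line from a granulosa cell tumor, was infected with a control lentivirus (LV-CON) or with a lentivirus carrying full-length TOX3 (LV-TOX3), both with puromycin resistance. Virus was diluted 1 to 200 and the cells were selected with 2 mg/ml puromycin over 2 passages, so each group is a selected population, with no cloning step named. Polyadenylated RNA of 2 samples per group was sequenced, and the culture protocol shared by all 4 names no low oxygen treatment. The 2 samples within a group are described as independent duplicates, with no word on whether they were grown as separate cultures, and the p-values below therefore reflect only how these 4 samples scatter, which may be technical scatter.

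Values are RPKM, which corrects read numbers for gene length and library size, so levels of different genes can be set side by side. The libraries held 16403371 to 17858746 reads. For TOX3 the LV-TOX3 libraries held 1586 and 1428 reads, and the LV-CON libraries 0 and 0. Of 12 granulosa markers 10 had a mean of at least 0.5 RPKM, among them the ovarian transcription factor FOXL2 at 10.5 and 10.9 RPKM in LV-CON against 10.99 and 10.97 in LV-TOX3. INHBA, an activin subunit, had 16.1 and 15.8 RPKM in LV-CON against 14.7 and 13.4 in LV-TOX3. The markers were not all alike between the groups, and 2 are named here after their values were seen. FSHR, the receptor of follicle-stimulating hormone, had means of 5.55 ± 0.566 and 9.81 ± 0.269 RPKM (SD, 2 libraries each) in LV-CON and LV-TOX3, with limma's unadjusted p = 0.00059 and adjusted p = 0.55. CYP19A1 (aromatase) had 7.08 and 4.25 RPKM in LV-CON against 13.8 and 7.37 in LV-TOX3. Of the 6 endothelial and 6 immune markers found, 1 each reached that mean. Of the 7 fibroblast or stromal markers 6 did, with COL1A1 at 1326 to 1437 RPKM and COL3A1 at 153 to 196. FST, the highest of the granulosa markers, had 65.1 to 78.2 RPKM. Of the 8 epithelial markers 4 reached the mean of 0.5 RPKM, and KRT18, at 469 to 622 RPKM, made up most of their summed level. KRT8 had 10.0 to 11.7 RPKM, KRT19 2.37 to 5.06 and KRT7 1.94 to 3.37, while EPCAM and ESRP1 had at most 0.121 RPKM. MIF, which most cells express strongly, was listed at no more than 0.155 RPKM, so a value at or near 0 in this table need not mean that a gene was silent.

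Glycolysis splits glucose into pyruvate. Glucose enters through SLC2A transporters, is trapped and phosphorylated by hexokinase and phosphofructokinase, and is converted by the lower enzymes into pyruvate, which lactate dehydrogenase turns into lactate for export through SLC16A transporters. The hypoxia-inducible factor (HIF) joins an oxygen-labile alpha subunit (HIF1A or EPAS1) to ARNT. With oxygen present, EGLN enzymes hydroxylate the alpha subunit and VHL marks it for destruction. Without oxygen it accumulates and raises transcription of many glycolytic genes and of genes such as CA9, BNIP3 and NDRG1. Its control is thus largely at the protein level, which was not measured in these libraries. In the ovary, granulosa cells lie in an avascular layer of the follicle and supply the oocyte with products of glycolysis.

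The question put to these genes was whether their RNA differed between LV-TOX3 and LV-CON. HIF1A was the member with the smallest p, and its lowest LV-TOX3 value lay above its highest LV-CON value, with a fold of 1.20 between the group means. The RNAs of 6 glycolytic enzymes lay lower in both LV-TOX3 libraries, at 0.918 to 0.960 of the LV-CON mean, and most hypoxia target genes overlapped between the groups. Of the 41 members 40 had a mean of at least 0.5 RPKM and were tested. In limma, fitted on log2(RPKM + 0.1) over 14184 genes, 0 of the 40 passed an adjusted p of 0.05 (Benjamini-Hochberg), where 0.00705% of all genes did, namely TOX3 alone. At an unadjusted p under 0.05, 1 member was higher (HIF1A) and 0 were lower, against 3.07% of all genes higher and 3.73% lower. Limma-voom on read numbers recovered from the RPKM values, likewise without the replicate number in the model, gave the same counts, 0 at the adjusted p and 1 at the unadjusted p. The counts depended on leaving that number out. With it as a block, 2 members (HIF1A and BNIP3L) and 729 of all genes passed the adjusted p in limma-voom. In limma on log2 RPKM with the same block 0 members did. No source states that the number marks a pairing. Groups did not overlap for 6 members in the higher direction and for 7 in the lower direction (17.5% of those tested), close to the 17.0% and 20.6% of all genes. Values above 0 on the log2 scale were found for 15 of the 40 members and values below 0 for 25. Of all genes tested 46.8% stood above 0 and 53.2% below. The median was -0.02 for the members beside -0.01 for all genes tested.

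**Figure D1:**
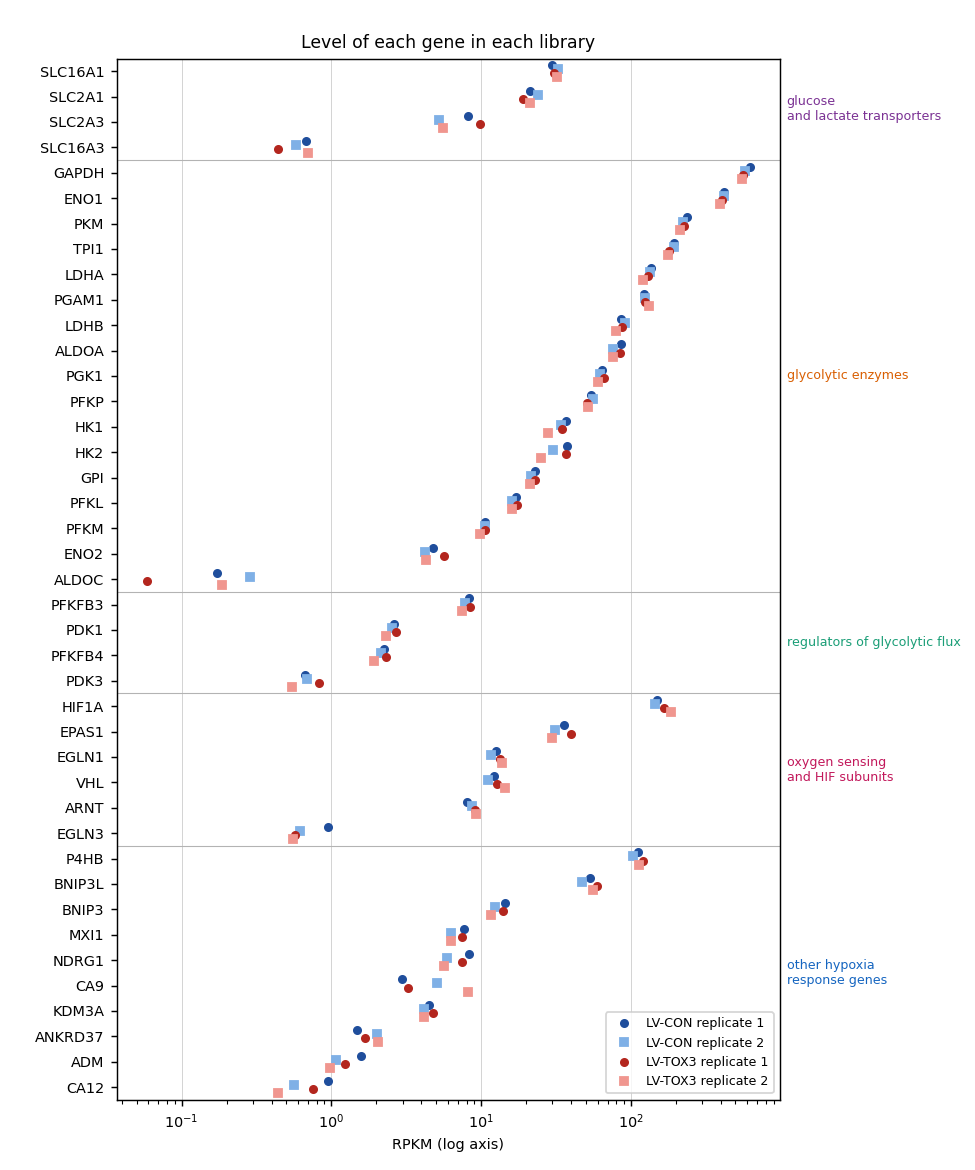
RPKM of each gene in each of the 4 libraries, on a log axis, with genes grouped by role and ordered by mean within a role. GAPDH lies highest and ALDOC lowest, and for SLC2A3, HK2, CA9 and CA12 the circles (replicate 1) separate from the squares (replicate 2) more than blue (LV-CON) separates from red (LV-TOX3).

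SLC2A1 (GLUT1), the main glucose transporter of proliferating cells, had 21.3 and 23.9 RPKM in LV-CON against 18.9 and 21.4 in LV-TOX3, replicate 1 given before replicate 2 here and below. The upper LV-TOX3 value lay just above the lower LV-CON value, and the difference on the log2 scale was -0.17 (standard error 0.10, limma's adjusted p = 0.80). SLC2A3 (GLUT3), a transporter of high glucose affinity, had 8.25 and 5.25 RPKM in LV-CON against 9.85 and 5.55 in LV-TOX3, so each group held 1 high and 1 low library. SLC16A1 (MCT1), which carries lactate and pyruvate in both directions, stood at 29.9 to 32.7 RPKM in all 4 libraries. SLC16A3 (MCT4), the lactate exporter of highly glycolytic cells and a HIF target, was near the limit of the filter, with 0.682 and 0.585 RPKM in LV-CON against 0.441 and 0.698 in LV-TOX3. None of the 4 transporters had groups apart.

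The 17 glycolytic enzymes made up 0.787% and 0.760% of the summed RPKM of all genes in the LV-CON libraries and 0.754% and 0.724% in the LV-TOX3 libraries. The groups were apart in this sum, but the gap between them was smaller than the gap between the 2 libraries of either group. Of the 16 enzymes tested, 13 stood below 0 and 3 above 0 on the log2 scale (median -0.07), where 53.2% of all genes stood below 0. Of these 16, 6 lay lower in both LV-TOX3 libraries (37.5%, beside the 20.6% of all genes). Their adjusted p from limma ran from 0.76 upward, so no enzyme passed the test. Several of these enzymes have processed pseudogenes of near-identical sequence. The methods name an expectation maximization estimate, which divides reads between such copies, but the RPKM values came out as whole reads times a constant. How reads shared by such copies were counted is thus not known, and the levels of these enzymes are uncertain to that extent.

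TPI1 (chromosome 12 of hg38 from 6867119 to 6870948), which interconverts the pair of triose phosphates, had groups that were narrow and apart. It had 195.5 and 193.8 RPKM in LV-CON against 179.3 and 177.8 in LV-TOX3, and its log2 fold change of -0.12 had a 95% interval from -0.28 to 0.03 (standard error 0.06, limma's adjusted p = 0.76). GAPDH, which makes the first NADH of the pathway and is often used as a reference gene, had 625 and 582 RPKM in LV-CON against 566 and 552 in LV-TOX3. Its log2 fold change was -0.11, with a 95% interval from -0.30 to 0.08. ENO1, the ubiquitous enolase, had 423 and 419.6 RPKM in LV-CON against 409 and 397 in LV-TOX3. LDHA, the lactate dehydrogenase subunit induced by HIF, had 138 and 134 RPKM in LV-CON against 131 and 122 in LV-TOX3. For these enzymes the highest LV-TOX3 value stayed under the lowest LV-CON value, as it did for the phosphofructokinase subunits PFKP (54.5 and 56.2 against 51.3 and 51.7 RPKM) and PFKM (10.7 and 10.6 against 10.6 and 9.87 RPKM). For PFKM the means of 10.7 and 10.2 RPKM differed by less than the SD of 0.526 between the LV-TOX3 libraries.

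The other enzymes overlapped between the groups. PKM, the pyruvate kinase of proliferating cells, had 238 and 223 RPKM in LV-CON against 226 and 212 in LV-TOX3. LDHB, the lactate dehydrogenase subunit of oxidative tissues, had 86.5 and 91.7 RPKM in LV-CON against 87.1 and 79.7 in LV-TOX3. HK1, the constitutive hexokinase, had 36.7 and 34.1 RPKM in LV-CON against 34.7 and 27.8 in LV-TOX3, and its low mean in LV-TOX3 came from replicate 2. HK2, the hexokinase induced by insulin and HIF, had 37.5 and 30.4 RPKM in LV-CON against 37.2 and 25.0 in LV-TOX3. ALDOA, PGK1, GPI and PFKL had log2 fold changes between -0.01 and 0.02, with both groups covering nearly the same range. PGAM1, the phosphoglycerate mutase, was the highest of the 3 enzymes on the positive side by level, at 122 and 125 RPKM in LV-CON against 124 and 133 in LV-TOX3. ENO2, the enolase named for neurons, had 4.75 and 4.20 RPKM in LV-CON against 5.69 and 4.30 in LV-TOX3. ALDOC, the aldolase named for brain, was the member below the filter, at 0.0588 to 0.287 RPKM.

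Enzymes that set the flux had small and overlapping differences. PFKFB3, which makes the activator of phosphofructokinase, had 8.26 and 7.81 RPKM in LV-CON against 8.47 and 7.41 in LV-TOX3. Its hypoxia-inducible relative PFKFB4 had 2.25 and 2.15 RPKM in LV-CON against 2.32 and 1.94 in LV-TOX3. PDK1 and PDK3 are kinases that switch off pyruvate dehydrogenase, and so keep pyruvate out of the citric acid cycle. PDK1 had 2.64 and 2.54 RPKM in LV-CON against 2.71 and 2.32 in LV-TOX3. PDK3 had 0.669 and 0.686 against 0.831 and 0.543 RPKM. For all 4 the value of the group with the wider spread reached above and below that of the other group, and the log2 fold changes lay between -0.05 and -0.01.

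**Figure D2:**
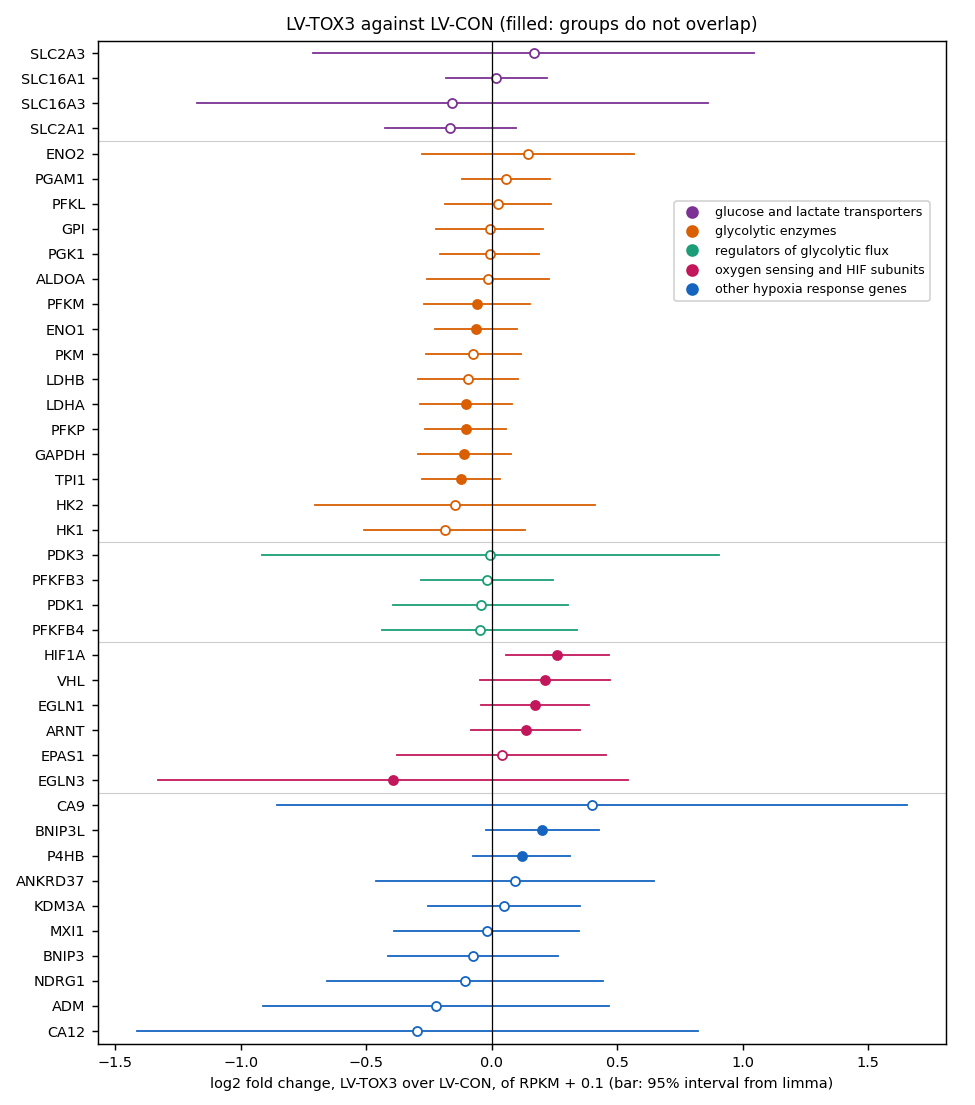
Log2 fold change of each tested gene (x axis, LV-TOX3 over LV-CON, of RPKM + 0.1) with its 95% interval from limma, by role. HIF1A is the one gene whose interval stays on one side of 0, and filled points are genes whose groups do not overlap. The widest intervals are those of CA9 and of the low genes SLC16A3, PDK3, EGLN3 and CA12.

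Among the genes of oxygen sensing most values lay on the higher side. HIF1A (ENSG00000100644, chromosome 14 of hg38 from 61695513 to 61748259, GENCODE v44) had 150.5 and 144.5 RPKM in LV-CON against 168 and 186 in LV-TOX3, which are 13764, 13296, 15038 and 15747 reads. The groups were apart, and the LV-TOX3 libraries differed from each other by more than the lower of them differed from the nearest LV-CON library. The means were 147.5 ± 4.20 RPKM (SD, n = 2) and 177 ± 13.2 (SD, n = 2), and the log2 fold change was 0.26 (standard error 0.08, 95% interval 0.06 to 0.47, unadjusted p = 0.022, limma's adjusted p = 0.70). Leaving out LV-TOX3 replicate 2 gave 0.18 (unadjusted p = 0.098), without LV-CON replicate 1 it was 0.29 (unadjusted p = 0.072), and without LV-CON replicate 2 it was 0.23 (unadjusted p = 0.12). It kept an unadjusted p under 0.05 only without LV-TOX3 replicate 1, at 0.34. With the replicate number as a block, HIF1A passed the adjusted p of 0.05 in limma-voom but not in limma on log2 RPKM. No source states that this number marks a pairing. The counting is not stated to use strand, so reads of HIF1A and of antisense genes at its locus cannot be told apart.

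VHL, the recognition subunit of the ubiquitin ligase that removes HIF alpha, had 12.2 and 11.1 RPKM in LV-CON against 12.7 and 14.4 in LV-TOX3, and limma gave 0.21 on the log2 scale (standard error 0.10, limma's adjusted p = 0.76). EGLN1 (PHD2), the main oxygen-sensing hydroxylase, had 12.7 and 11.6 RPKM in LV-CON against 13.4 and 13.9 in LV-TOX3, which is 0.17 on the log2 scale. ARNT, the partner of the alpha subunits, had 8.09 and 8.69 RPKM in LV-CON against 9.13 and 9.30 in LV-TOX3, which is 0.13 on the log2 scale. In each of these genes both LV-TOX3 libraries lay above both LV-CON libraries. EPAS1 (HIF-2 alpha) overlapped, with 36.1 and 31.2 RPKM in LV-CON against 39.8 and 29.8 in LV-TOX3. EGLN3 (PHD3), a hydroxylase that HIF itself induces, was the one of the 6 with lower values, at 0.957 and 0.616 RPKM in LV-CON (125 and 81 reads) and 0.570 and 0.555 in LV-TOX3 (73 and 67 reads). Of the 6 genes 4 were apart with LV-TOX3 higher (66.7%, beside 17.0% of all genes) and 1 with it lower (16.7%, beside 20.6%), and the median log2 fold change was 0.15. Markers of stromal cells lay on the same side as HIF1A in sum. Their summed level, most of it COL1A1, was 1572 and 1613 RPKM in LV-CON against 1670.5 and 1664 in LV-TOX3, 3 of the 6 tested were apart with LV-TOX3 higher and 1 with it lower, and DCN was at most 0.112 RPKM. Their part in the result was not tested.

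Most hypoxia targets overlapped between the groups, unlike HIF1A. CA9 (chromosome 9 of hg38 from 35673928 to 35681159), a carbonic anhydrase of the cell surface and one of the most sensitive HIF1A targets, had 2.97 and 5.10 RPKM in LV-CON (88 and 152 reads) and 3.27 and 8.14 in LV-TOX3 (95 and 223 reads). Its high libraries were replicate 2 of each group, the groups overlapped, and the 95% interval of the log2 fold change of 0.40 ran from -0.85 to 1.65. CA12, a related surface enzyme, had the opposite order, with 0.947 and 0.567 RPKM in LV-CON against 0.754 and 0.442 in LV-TOX3. NDRG1, a hypoxia and differentiation gene, had 8.34 and 5.96 RPKM in LV-CON against 7.501 and 5.70 in LV-TOX3. BNIP3, a mitophagy receptor, had 14.5 and 12.4 RPKM in LV-CON against 14.0 and 11.6 in LV-TOX3. ADM, the vasodilator peptide adrenomedullin, had 1.57 and 1.07 RPKM in LV-CON against 1.23 and 0.987 in LV-TOX3. In CA12, NDRG1, BNIP3 and ADM the replicate 1 library was the higher one in both groups. MXI1, an antagonist of MYC, and KDM3A, a histone demethylase, had log2 fold changes of -0.02 and 0.05.

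Of these 10 targets 2 had groups apart, both in the higher direction, a share near the 17.0% of all genes. BNIP3L, the mitophagy receptor NIX, had 53.3 and 47.1 RPKM in LV-CON against 59.2 and 56.2 in LV-TOX3, which is 0.20 on the log2 scale (standard error 0.09, 95% interval -0.02 to 0.43, limma's adjusted p = 0.73). Like HIF1A, BNIP3L passed the adjusted p of 0.05 in limma-voom with the replicate number as a block, but not in limma on log2 RPKM with that block. P4HB, the beta subunit of collagen prolyl hydroxylase and a protein disulfide isomerase, had 112 and 104 RPKM in LV-CON against 121 and 114 in LV-TOX3, which is 0.12 on the log2 scale. ANKRD37, a small ankyrin repeat protein strongly induced by HIF1A, had 1.48 and 2.02 RPKM in LV-CON against 1.67 and 2.06 in LV-TOX3, again with the higher library in replicate 2 of each group. CA9 and ANKRD37 were thus higher in replicate 2 of each group, and the other 8 targets were lower there.

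HIF binds the 5-base core ACGTG or GCGTG. This core was searched in the 250 bases before each RefSeq transcription start (GRCh38.p14) on both strands, where it reads CACGT or CACGC from the other side, and CACGTG counts as 2 overlapping matches. RefSeq windows were matched for 36 of the 41 members, and 30 of them (83.3%) had a core before at least 1 of their starts, beside 47.4% of all 27305 gene symbols. By window the shares were 60.6% of 66 member windows and 43.2% of all 35116. Some members have more starts than others, such as HK1 and PFKM with 7 each, and more starts give more occasions for a match. The symbols were not limited to genes tested here or matched to the members, so the shares are no test of enrichment. The stretches below hold the matches of genes that differed in different ways between the libraries. Cores are in capitals and up to 20 flanking bases on each side in lower case, 5′ to 3′ along the gene. HK2, LDHA and HIF1A have 2 starts each, and the start with the most matches was taken. CA9 and ANKRD37 had their higher library in replicate 2 of each group, BNIP3 and HK2 in replicate 1, LDHA lay lower in LV-TOX3 and HIF1A higher.
CA9 (chr9:35673890-35673927, plus strand): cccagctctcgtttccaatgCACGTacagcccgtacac
ANKRD37 (chr4:185396659-185396722, plus strand): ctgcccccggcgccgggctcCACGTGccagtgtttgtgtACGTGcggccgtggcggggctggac
BNIP3 (chr10:131982003-131982086, minus strand): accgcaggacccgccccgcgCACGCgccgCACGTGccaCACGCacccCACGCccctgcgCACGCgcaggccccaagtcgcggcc
HK2 (chr2:74834956-74835124, plus strand): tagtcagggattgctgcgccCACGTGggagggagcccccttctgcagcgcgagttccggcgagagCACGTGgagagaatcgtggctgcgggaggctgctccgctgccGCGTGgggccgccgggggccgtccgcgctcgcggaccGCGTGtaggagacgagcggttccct
LDHA (chr11:18394358-18394514, plus strand): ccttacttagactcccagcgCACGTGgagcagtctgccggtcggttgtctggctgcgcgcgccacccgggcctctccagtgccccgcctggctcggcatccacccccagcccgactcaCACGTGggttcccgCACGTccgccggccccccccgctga
HIF1A (chr14:61695289-61695333, plus strand): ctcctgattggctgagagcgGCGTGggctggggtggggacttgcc
In CA9 the single core lay 18 bases before the start, and in HIF1A 204 bases before the start taken. BNIP3 held 6 matches and HK2 6, both genes of the replicate 1 side. Only genes with a match are shown, so the stretches cannot tell whether a core goes with the behaviour of a gene. A match is a description of letters and not a bound site.

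The groups overlapped for 27 of the 40 tested members. They were apart for 15% of members in the higher and 17.5% in the lower direction, near the 17.0% and 20.6% of all genes. For most members the difference between replicate 1 and replicate 2 had the same sign in both groups. Of the 40 tested members 27 (67.5%) were lower in replicate 2 than in replicate 1 in LV-CON and also in LV-TOX3, beside 27.5% of all genes tested, and 7 (17.5%) were higher in replicate 2 in both groups, beside 34.3%. By role the count of lower members was 13 of 16 glycolytic enzymes, 3 of 4 regulators of flux, 8 of 10 other hypoxia targets, 2 of 6 oxygen sensing genes and 1 of 4 transporters. SLC2A3 was 1.57-fold higher in replicate 1 than in replicate 2 of LV-CON and 1.77-fold higher in LV-TOX3. For CA12 these folds were 1.67 and 1.71, for HK2 1.24 and 1.49, for NDRG1 1.40 and 1.32, and for EPAS1 1.16 and 1.34. CA9 ran the other way, 1.72-fold and 2.49-fold higher in replicate 2. Across the 40 genes the log2 difference between the libraries of LV-CON and that of LV-TOX3 had a Pearson r of 0.73, and across all 14184 tested genes 0.19. Genes share their libraries and are not independent points, so r is given as a description.

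**Figure D3:**
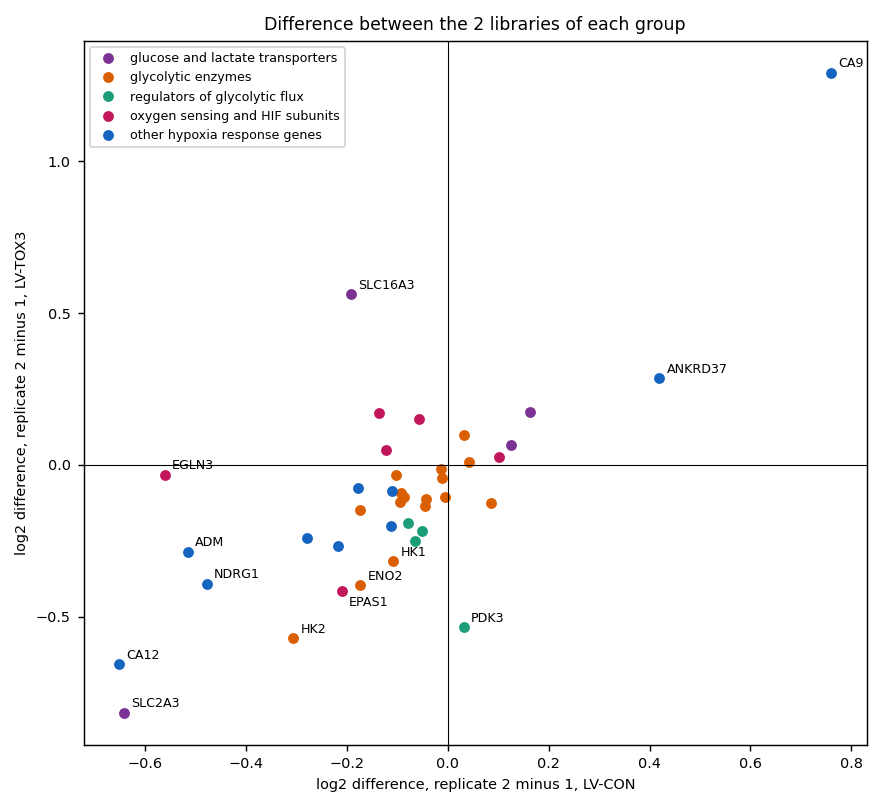
Log2 difference between replicate 2 and replicate 1 of LV-CON (x axis) and of LV-TOX3 (y axis) for the 40 tested genes, coloured by role. Most genes lie in the lower left, with SLC2A3, CA12, NDRG1, ADM and HK2 farthest out, and CA9 and ANKRD37 lie in the upper right.

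No source says what the replicate numbers stand for, so this is a difference between libraries that carry a number and not between known conditions. The paper names batch effects of its sequencing among its limits, without saying which libraries shared a batch. The read totals of replicates 1 and 2 were 17757132 and 17858746 in LV-CON against 17413376 and 16403371 in LV-TOX3. The summed level of the 8 epithelial markers, nearly all of it KRT18, was 486 and 487 RPKM in the replicate 1 libraries and 592 and 641 in the replicate 2 libraries, and 3 of the 4 tested were higher in replicate 2 of both groups. EPCAM was between 0 and 0.121 RPKM. The part of depth and of these markers in the pattern was not tested.

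The same readings were taken for lists of other genes of these pathways. Among 34 other HIF target genes 31 were tested, 2 were higher and 1 lower at an unadjusted p under 0.05, and 24 (77.4%, beside 27.5% of all genes) were lower in replicate 2 of both groups. WSB1, a ubiquitin ligase adaptor, had 34.1 and 36.3 RPKM in LV-CON against 41.1 and 49.0 in LV-TOX3, and LOX, the collagen cross-linking oxidase, had 193 and 164 RPKM in LV-CON against 234 and 205 in LV-TOX3. Their log2 fold changes were 0.35 and 0.30 (limma's adjusted p = 0.70 and 0.72). STC2, a secreted glycoprotein, was the lower one, with 55.5 and 54.2 RPKM in LV-CON against 47.4 and 43.3 in LV-TOX3, and limma gave -0.27 on the log2 scale (standard error 0.08, limma's adjusted p = 0.67). PLOD2, a lysyl hydroxylase of collagen, had a log2 fold change of 0.17. VEGFA, named here after its values were seen, had 25.6 and 23.5 RPKM in LV-CON against 25.8 and 20.04 in LV-TOX3, with the lower library in replicate 2 of each group. Of the 31 genes 8 (25.8%) were apart in each direction, beside 17.0% of all genes in the higher and 20.6% in the lower.

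Among 11 other genes of oxygen sensing 10 were tested, 0 passed an unadjusted p of 0.05, and 4 were apart in the lower direction, beside 20.6% of all genes. ELOB and RBX1, which belong to the same ubiquitin ligase as VHL, had log2 fold changes of -0.18 and -0.19, against 0.21 for VHL itself. ELOB had 57.4 and 62.9 RPKM in LV-CON against 53.3 and 52.6 in LV-TOX3, and RBX1 12.8 and 14.1 against 11.6 and 12.01. HIF1AN, the asparaginyl hydroxylase that blocks the transactivation domain of HIF alpha, had 6.69 and 6.50 RPKM in LV-CON against 5.91 and 6.09 in LV-TOX3. CITED2, which competes with HIF for its coactivators, was the most abundant of this list, at 101 and 90.5 RPKM in LV-CON against 96.6 and 80.5 in LV-TOX3, and overlapped between the groups. Here 1 gene was lower and 7 were higher in replicate 2 of both groups, beside 27.5% and 34.3% of all genes.

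Among 33 other genes of glycolysis and gluconeogenesis 31 were found and 19 were tested, with 1 higher at an unadjusted p under 0.05 and 0 lower. SLC16A7 (MCT2), a monocarboxylate transporter of high affinity, had 1.70 and 1.58 RPKM in LV-CON against 2.35 and 2.96 in LV-TOX3, and limma gave 0.66 on the log2 scale (standard error 0.17, limma's adjusted p = 0.66). TIGAR, which lowers the activator of phosphofructokinase, had a log2 fold change of -0.23, and the bisphosphoglycerate enzymes MINPP1 and BPGM had 0.22 and 0.15. BSG (basigin), the chaperone of SLC16A transporters, was the most abundant, at 238 and 212 RPKM in LV-CON against 244 and 218 in LV-TOX3, followed by PGM1, phosphoglucomutase, at 66.8 and 63.8 against 69.6 and 73.5. Of 12 genes of pyruvate entry into mitochondria all were tested and 1 was higher at an unadjusted p under 0.05. PDK4, the pyruvate dehydrogenase kinase of fasting tissues, had 1.36 and 1.21 RPKM in LV-CON against 1.80 and 2.04 in LV-TOX3, and limma gave 0.54 on the log2 scale (standard error 0.17, limma's adjusted p = 0.72), while PDK2 had -0.13, PDHA1, a subunit of the dehydrogenase, -0.11 and DLD, its lipoamide dehydrogenase, 0.08. PDHB was the most abundant of the list at 22.2 to 24.7 RPKM. Of the 7 genes of the pentose phosphate pathway 0 passed, and 2 (RPIA and TALDO1) were apart in the lower direction at log2 fold changes of -0.22 and -0.12. TKT and PGD had log2 fold changes of -0.11 and -0.07. Over these 5 lists 0 of 79 tested genes passed the adjusted p, 4 were higher and 1 lower at the unadjusted p, beside 3.07% and 3.73% of all genes. Groups were apart for 16 (20.3%) in the higher and 17 (21.5%) in the lower direction, near the 17.0% and 20.6% of all genes. With LV-CON replicate 2 left out, 0 of the 79 were higher or lower at the unadjusted p, and with LV-TOX3 replicate 2 left out 1 was higher and 0 were lower.

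Isozymes differ in regulation, so the share of each within its family was computed in every library. A family here holds only the listed members, and other genes of the same kind were left out. HK1 and HK2 were split almost evenly, HK1 holding 49.4% and 52.9% of their summed RPKM in LV-CON against 48.3% and 52.7% in LV-TOX3. HKDC1, a further hexokinase left out of this share, had 10.5 and 8.20 RPKM in LV-CON against 10.3 and 4.80 in LV-TOX3. PFKP held 66.3% and 67.8% of phosphofructokinase in LV-CON against 64.6% and 66.5% in LV-TOX3, and PFKL, the liver type, 20.7% and 19.4% against 22.0% and 20.8%. LDHA held 59.3% to 61.4% of lactate dehydrogenase in all 4 libraries, and its share overlapped between the groups. ALDOA held at least 99.6% beside ALDOC, ENO1 at least 98.6% beside ENO2, and SLC16A1 at least 97.8% beside SLC16A3. SLC16A7 at 1.58 to 2.96 RPKM and ENO3 at 1.14 to 1.45 RPKM were not among the genes of these pairs. SLC2A1 held 72.1% and 82.0% of the listed glucose transporters in LV-CON against 65.8% and 79.4% in LV-TOX3, which follows the replicate number rather than the group.

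Among the HIF alpha subunits HIF1A held 80.7% and 82.2% in LV-CON against 80.8% and 86.2% in LV-TOX3. EGLN1 held 93.0% and 94.96% of EGLN1 and EGLN3 together in LV-CON against 95.9% and 96.2% in LV-TOX3. BNIP3L held 78.7% and 79.1% of the BNIP3 pair in LV-CON against 80.9% and 82.9% in LV-TOX3. CA9 held 75.8% and 90.0% of the carbonic anhydrase pair in LV-CON against 81.3% and 94.9% in LV-TOX3. Of the 13 families 3 had groups apart for a member, namely PFKL among the phosphofructokinases, the EGLN pair and the BNIP3 pair. By level, 17.0% of all genes were apart in the higher and 20.6% in the lower direction, so this count does not set these families off. With 2 libraries per group an exact permutation test cannot give a p under 0.33, so these shares were not tested.

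**Figure D4:**
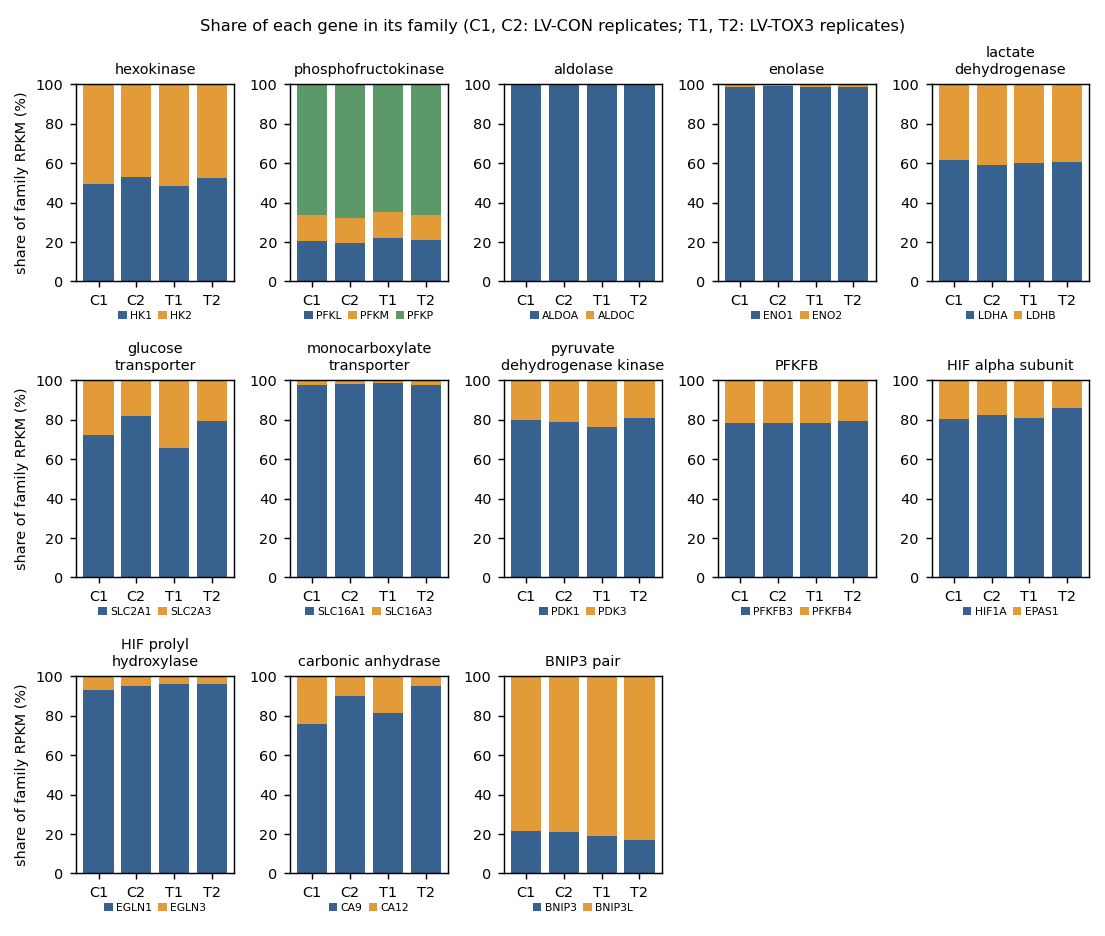
Share of each gene in the summed RPKM of the listed genes of its family (y axis, percent), for 13 families. Bars are LV-CON replicates 1 and 2 (C1, C2) and LV-TOX3 replicates 1 and 2 (T1, T2). BNIP3L takes a larger share in both LV-TOX3 libraries, while the shares of SLC2A1 and CA9 are larger in replicate 2 of both groups.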

How the data were processed

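RNA of 4 KGN libraries, 2 LV-CON and 2 LV-TOX3 by their labels, was analysed. The authors used SOAPnuke for read filtering and HISAT2 with hg38 for alignment, and deposited RPKM values per gene and library. Tool versions were not given in the sources used here. The methods name ComBat for batch effects without saying whether it was applied to these values. For all 29088 genes with a value above 0 the RPKM came out as whole reads times a constant (relative tolerance 1e-12), and reads were recovered, up to a whole factor per gene (for PFKP, PDK3 and ALDOC the factor was not settled and no reads are given). For 12997 genes the factor gave the GENCODE length exactly. For the others, TOX3 among them, it was left at 1, so their reads, also used in limma-voom, may be too low by a whole factor. The recovery and the test were tested on simulated data. Read numbers of every pair of libraries differed by more than sampling noise (chi-square divided by degrees of freedom 7.85 to 14.0). Libraries of the same replicate number in the 2 groups had 7.85 and 8.91. Libraries of the same group had 8.98 and 10.7, and the remaining pairs 13.3 and 14.0. Groups were compared with limma (version 3.58.1, R 4.3.3; eBayes with trend, two-sided) on log2(RPKM + 0.1) over genes averaging 0.5 RPKM or more, a scale on which folds of low genes are understated, with Benjamini-Hochberg adjustment over 14184 genes. Tables were handled in Python 3.11.15. Coordinates are those of GENCODE v44 and promoter letters those of RefSeq. The members, lists and tests were chosen with earlier results of these data known. Every member with a mean of at least 0.5 RPKM is named. For other lists the rule takes up to 4 genes with the smallest p and up to 2 with the highest level, of which 2 genes are not reported here. Alternatives were another pseudocount, other filters, median ratio and quantile scaling, the replicate number as a block, limma-voom on recovered reads, and each library left out.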

Additional observations from a re-analysis of the deposited data

How the results depend on the processing

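Over all genes, 1 gene passed the adjusted p in limma, 0 did without a filter on low values or with any 1 library left out (0 to 0), and 729 did in limma-voom with the replicate block. Genes at an unadjusted p under 0.05 numbered 436 higher and 529 lower, 897 and 863 without the filter, 765 and 992 with the replicate block, 1164 and 1076 in limma-voom with that block, and from 203 to 427 and from 304 to 469 with 1 library left out. Median ratio scaling gave 493 and 485, quantile normalization 497 and 483 and limma-voom without the block 529 and 462. Of the members, 0 passed the adjusted p in every setting but limma-voom with the replicate block, where 2 did, HIF1A (adjusted p = 0.0023) and BNIP3L (adjusted p = 0.048). At the unadjusted p 1 member was higher and 0 lower. These were 2 higher with quantile normalization, 3 higher and 1 lower with the replicate block, 6 and 3 in limma-voom with it, and 0 to 1 and 0 to 1 with 1 library left out. The other pathway genes, 4 higher and 1 lower, were 8 and 7 with the block, 10 and 7 in limma-voom with it, and 0 to 3 and 0 to 3 with 1 library left out, while those lower were 2 in limma-voom and with a mean of at least 1 RPKM, and 4 without the filter. The replicate numbers mark no stated pairing. Differences between the libraries of LV-CON and of LV-TOX3 correlated at 0.19 over all genes. The median log2 fold change of the members ran from -0.10 (without LV-TOX3 replicate 1) to 0.06 (without LV-TOX3 replicate 2), that of the enzymes from -0.10 to -0.02. Of 40 members 18 kept their sign with each library left out. The other 22 ran from -0.48 to 0.035 (ADM), -0.10 to 0.073 (ALDOA), -0.12 to 0.30 (ANKRD37), -0.21 to 0.059 (BNIP3), -0.62 to 0.031 (CA12), -0.25 to 1.045 (CA9), -0.053 to 0.34 (ENO2), -0.17 to 0.25 (EPAS1), -0.068 to 0.053 (GPI), -0.43 to 0.14 (HK2), -0.051 to 0.15 (KDM3A), -0.16 to 0.12 (MXI1), -0.35 to 0.13 (NDRG1), -0.15 to 0.064 (PDK1), -0.27 to 0.26 (PDK3), -0.12 to 0.076 (PFKFB3), -0.17 to 0.077 (PFKFB4), -0.029 to 0.078 (PFKL), -0.076 to 0.058 (PGK1), -0.044 to 0.081 (SLC16A1), -0.44 to 0.12 (SLC16A3), -0.24 to 0.57 (SLC2A3). Values near 0 turned sign elsewhere too: GPI to 0.0032 (median ratio), 0.018 (quantile), 0.00037 and 0.00054 (limma-voom without and with block), ALDOA to 0.015 (quantile), PGK1 to 0.0015 (median ratio) and 0.0057 (quantile), and PDK3 to 0.0031 (pseudocount 1 and median ratio), 0.0045 and 0.031 (limma-voom without and with block). The causes were not tested. Shares by reads instead of RPKM, which ignore gene length, put CA9 at 54.5% (LV-CON) and 65.3% (LV-TOX3) of its pair, and are not given for families with PFKP, PDK3 or ALDOC, whose read factor is not settled. The quasi-likelihood count test planned on recovered reads was not run. With 2 libraries per group, low genes such as SLC16A3 and EGLN3 have wide intervals.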
